A study of Mus musculus with 6 samples.

Results

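The genes described here are 41 interferon response genes that lie outside the chromosome 1 segment in which the strains of the study differ. They were chosen by name from knowledge of the interferon response and taken from the array by the gene symbol printed for each probe. All 41 had a probe, 54 probes in all, and 39 passed the filter on dim signals, of 25275 genes that passed it in the whole series. Each gene is represented by its brightest probe.

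Gene expression was measured in whole testis with 1-colour Agilent arrays, 3 per strain. The tested mice were B6.MRLc1, a congenic strain with the C57BL/6 background that carries a telomeric part of chromosome 1 from MRL mice, between 67.97 and 81.63 cM. The comparison mice were wild-type C57BL/6 (B6). Mice of both strains were 3 months old males, had received 1 heat exposure of the scrotum at 43 degrees C for 20 min, and gave their testes 10 days later. Unheated testes were not analysed here, and the values therefore compare strains after heat and do not measure a response to it. The strains were compared to find testis genes that differ after heat, and each array was taken as 1 mouse since the design counts 3 mice of each strain. A congenic segment holds many genes, so a difference between the strains cannot be assigned to any one of them.

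Interferons are secreted proteins that cells release when they sense viral nucleic acid. Type I interferons bind a receptor whose kinases activate transcription factors of the STAT family. A complex that holds STAT2 and IRF9 then binds the interferon-stimulated response element (ISRE) in the promoters of effector genes, while type II interferon acts mainly through the gamma-activated site (GAS). The products of the effector genes degrade viral RNA, block translation or viral entry, and raise antigen display by MHC class I. Testicular macrophages, Sertoli cells and Leydig cells can mount this response, and the testis is otherwise known as an organ of restrained immune reaction.

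The 2 response elements were looked up in the RefSeq promoter windows (GRCm38.p6) of the listed genes, which run from 250 bases before to 50 bases after the annotated start. A window was given for 33 of the 41 genes. Genes named without a window are Mx1, Mx2, Oas1b, Oas2, Usp18, Dhx58, Zbp1 and Tap2. The ISRE core was searched on both strands as GAAA, any 2 bases and GAAA again, and was found in 16 of the 33 genes (48.5%), against 3.99% of all 27025 genes with a window. It stood in 3.44% of all 32851 windows. The GAS core TTCNNNGAA, which reads the same on both strands, was found in 10 of the 33 genes (30.3%), against 9.55% of all genes with a window and 8.30% of all windows. Matches are descriptions and show neither binding nor a cause, and the genes were listed for being interferon responsive. The stretches below, read 5′ to 3′ on the strand of the gene, show the element from 1 gene or more of several roles. Capitals mark the bases of the ISRE core, which begins and ends with TTTC when it lies on the opposite strand, and the last stretch has the GAS core of Irf1 in capitals.
Isg15, chr4:156200872-156200911, minus strand: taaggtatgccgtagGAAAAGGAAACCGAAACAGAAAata
Bst2, chr8:71537578-71537617, minus strand: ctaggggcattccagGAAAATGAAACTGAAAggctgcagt
Oas1a, chr5:120907521-120907560, minus strand: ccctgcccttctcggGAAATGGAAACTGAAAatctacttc
Ifit1, chr19:34640770-34640809, plus strand: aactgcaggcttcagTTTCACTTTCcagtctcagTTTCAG
Rsad2, chr12:26456548-26456587, minus strand: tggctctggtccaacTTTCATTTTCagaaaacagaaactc
Gbp2, chr3:142620589-142620628, plus strand: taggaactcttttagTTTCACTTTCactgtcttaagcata
Stat2, chr10:128270261-128270300, plus strand: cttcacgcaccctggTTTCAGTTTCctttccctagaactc
B2m, chr2:122147533-122147572, plus strand: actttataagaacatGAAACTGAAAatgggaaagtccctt
Irf1, chr11:53769909-53769947, plus strand: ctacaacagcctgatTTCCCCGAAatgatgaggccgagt

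Isg15 held 3 overlapping ISRE matches, the first at base -78, where base -1 is the last before the annotated start. Bst2 and Oas1a each held 2 that overlap. The capitals at the end of the Ifit1 stretch begin a further match that runs on past it. In Bst2 a GAS match that starts at base -136 also overlaps the ISRE match that starts at base -130. The stretch of Oas1a occurs with the same letters in the window of Oas1g, its close relative. Ifitm1, Irf1, Irf9 and Tap1 had no ISRE match in these windows. The windows of Tap1 and Psmb9, which point away from each other on chromosome 17, share 275 bases. Probe positions given below are those of the array annotation, which the file headers place on mm9, and are not on the build of these stretches.

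None of the 39 tested genes differed between the strains at an adjusted p under 0.05 (limma with Benjamini-Hochberg adjustment over all 25275 genes), against 2.62% of all tested genes. At an unadjusted limma p under 0.05 there were 5 of 39, all lower in B6.MRLc1 testes: Ifitm1, Oas2, Irf1, Irf9 and Tap1. Of all tested genes, 11.1% had such a p and were lower in B6.MRLc1 and 9.14% had one and were higher. The share among the interferon response genes (12.8%) was therefore near the background for lower genes, with no gene on the higher side. The count of genes past the adjusted threshold was 0 under 15 of 17 other settings, 2 with array weights and 4 without B6 array 3.

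The fitted difference was below 0 for 31 of 39 genes, against 46.0% of all tested genes. Its median was -0.17 on the log2 scale, against 0.02 for all tested genes, and it ran from -0.71 for Ifitm1 to 0.29 for Irf8. The median standard error was 0.164, against 0.0938 for all tested genes. Since whole testis was measured, fewer cells that express a gene and less of its RNA per cell cannot be told apart. The B6.MRLc1 arrays lay in 1 row of the slide and the B6 arrays in the other, so the effect of the row and that of the strain cannot be told apart. The p-values rest only on the spread within each strain over these 6 arrays, moderated by limma over all tested genes.

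**Figure D1:**
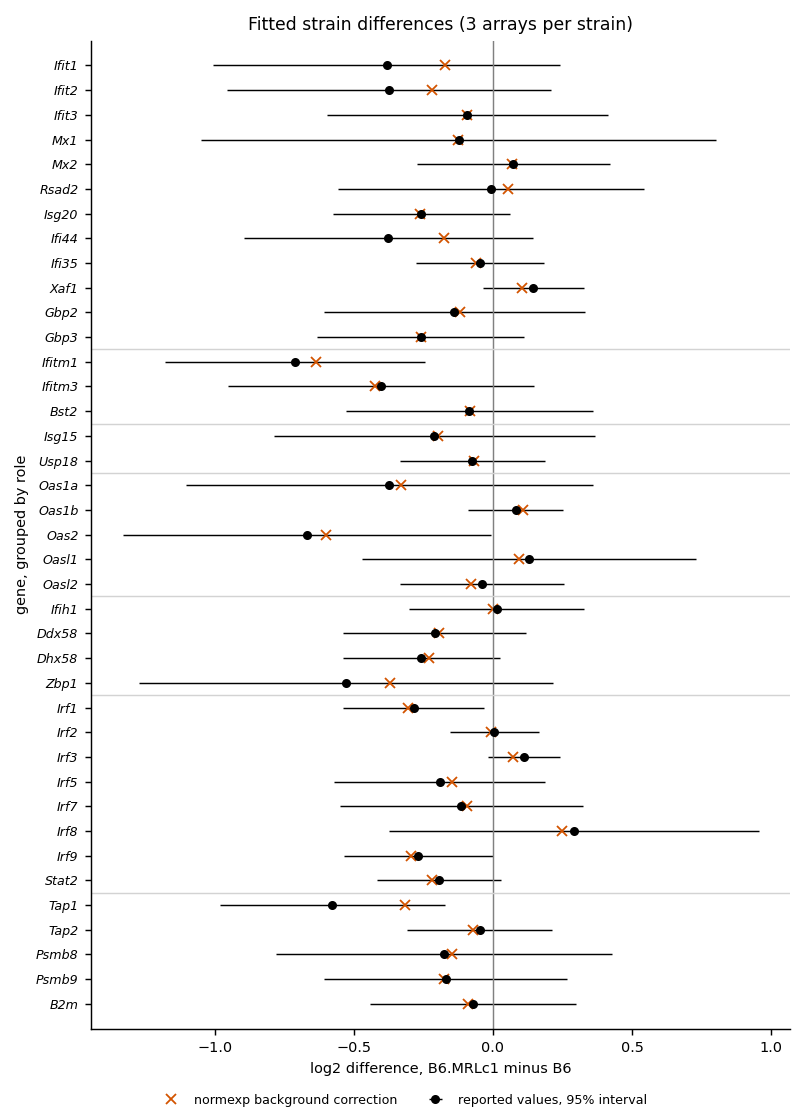
Fitted log2 difference, B6.MRLc1 minus B6, for each of the 39 tested interferon response genes, with the 95% interval of the limma fit (3 arrays per strain). Crosses give the difference with normexp background correction, and grey lines part the 7 role groups. Most points lie left of 0, and the intervals of Ifitm1, Oas2, Irf1, Irf9 and Tap1 end below 0 before adjustment.

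The values on the single arrays had a common pattern. A score for each array, the median over the 39 genes of log2 signal minus the mean of the gene over the 6 arrays, was -0.15, 0.02 and -0.13 on B6.MRLc1 arrays 1, 2 and 3. The B6 arrays scored 0.26, 0.19 and -0.20. B6 arrays 1 and 2 were thus the highest and B6 array 3 the lowest of all 6, so the groups overlapped. B6 array 3 was the lowest of the 3 B6 arrays for 33 of the 39 genes, against 31.3% of all tested genes. B6 array 1 was the lowest for Xaf1, Usp18, Oas1b, Irf2 and Irf3, and B6 array 2 for Dhx58, against 41.6% and 27.0% of all tested genes for these arrays. The SD over the 3 arrays was larger in B6 for 35 of the 39 genes, against 54.1% of all tested genes. Its median was 0.124 in B6.MRLc1 and 0.293 in B6 for the interferon response genes, and 0.0977 in B6.MRLc1 and 0.113 in B6 for all tested genes.

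**Figure D2:**
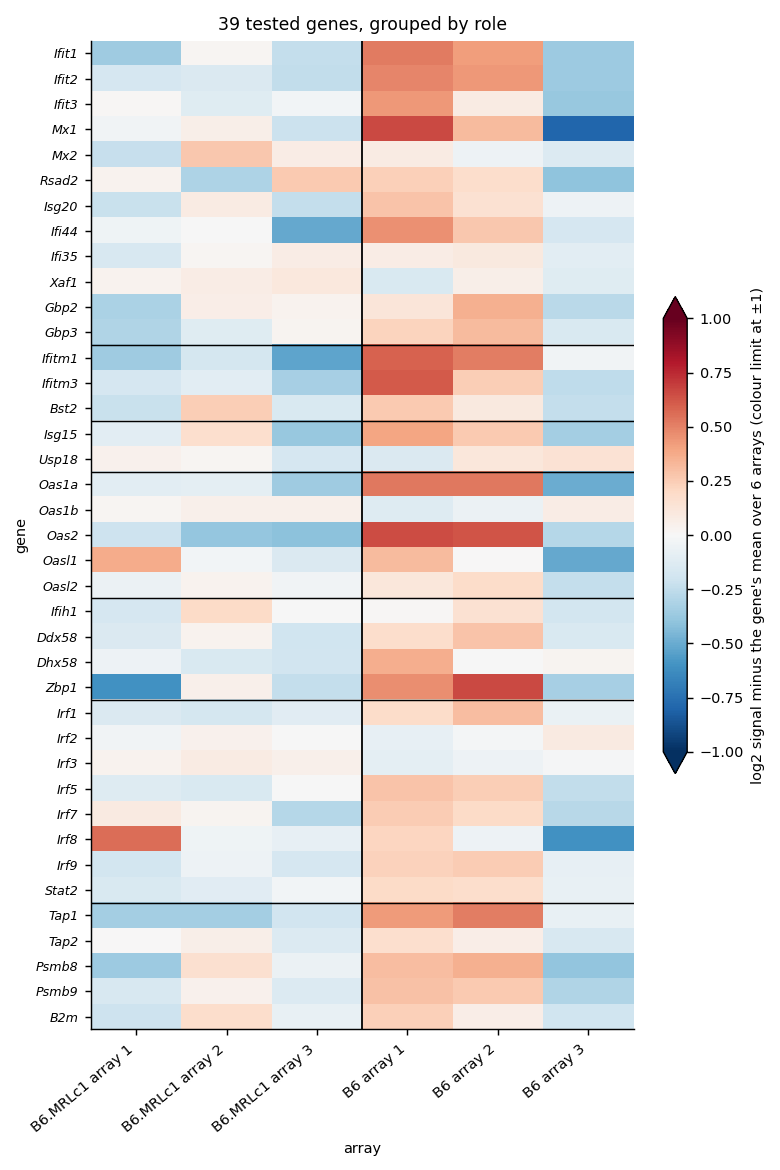
Log2 signal of each of the 39 tested genes on each array minus the mean of that gene over the 6 arrays, with the B6.MRLc1 arrays left of the line and the B6 arrays right of it. Red cells are above the mean and blue cells below it. The columns of B6 arrays 1 and 2 are mostly red and that of B6 array 3 is mostly blue.

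The order of the arrays by this score was the same with median scaling, with quantile normalization and with normexp, where the score was -0.13, 0.01 and -0.11 on the B6.MRLc1 arrays and 0.24, 0.15 and -0.16 on the B6 arrays. The 75th percentile of the processed signal, by which each array was scaled, was 556.8, 604.7 and 562.8 intensity units on the B6.MRLc1 arrays and 669.8, 646.3 and 580.8 on the B6 arrays. It was thus highest on the 2 arrays with the highest scores, and its part in the pattern was not tested.

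**Figure D3:**
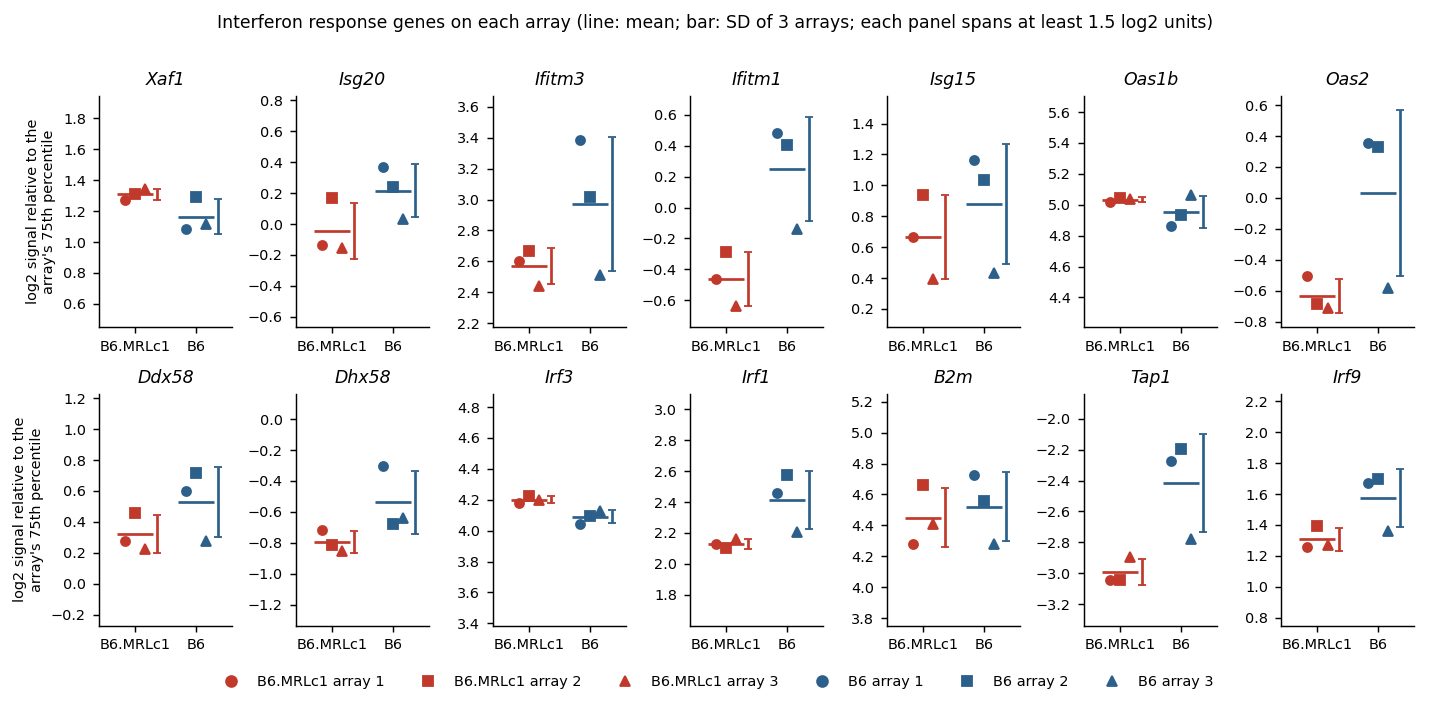
Log2 signal relative to the 75th percentile of the array for 14 of the genes whose levels by array are in the text, with B6.MRLc1 left of B6 in each panel. Points are arrays, lines are means and bars are the SD of 3 arrays. For Ifitm1, Dhx58, Irf1 and Tap1 all B6.MRLc1 points lie below all B6 points, and for Irf3 they lie above.

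All levels that follow are log2 signal relative to the 75th percentile of the array, and differences are B6.MRLc1 minus B6. The B6.MRLc1 arrays lay below all B6 arrays for 4 of the 39 genes (Ifitm1, Dhx58, Irf1 and Tap1), against 13.8% of all tested genes. They lay above all B6 arrays for Irf3 alone, against 14.8% of all tested genes. Both shares were under the background. They hold for the brightest probe of each gene, and no such share was computed for the dimmer probes named below.

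The sensors of viral nucleic acid come first in the pathway. Ddx58 (RIG-I, which binds viral RNA ends, probe at chr4:40151893-40151952) had levels of 0.28, 0.46 and 0.23 in B6.MRLc1 testes and 0.60, 0.71 and 0.28 in B6 testes. The highest were B6 arrays 1 and 2, and B6 array 3 lay among the B6.MRLc1 arrays. The difference was -0.21 (SE 0.13, adjusted p = 0.425 by limma). A dimmer kept probe of Ddx58 gave -0.29, with B6.MRLc1 levels of -4.39, -4.21 and -4.49 and B6 levels of -4.02, -4.17 and -4.04. On that probe the groups did not overlap, and B6 array 2 was the lowest of the B6 arrays. Dhx58 (LGP2, a regulator of RIG-I and MDA5, probe at chr11:100556271-100556330) had levels of -0.72, -0.82 and -0.86 in B6.MRLc1 testes and -0.30, -0.68 and -0.64 in B6 testes. The groups did not overlap, B6 array 1 stood above the other 5, and the difference was -0.26 (SE 0.11, adjusted p = 0.28 by limma). Ifih1 (MDA5, a sensor of long double-stranded RNA) had a difference of 0.01, and Zbp1, a sensor of Z-form nucleic acid, one of -0.53 with the wide 95% interval from -1.27 to 0.22. The strains overlapped for both. Dimmer kept probes gave -0.06 for Ifih1 and -0.44 for Zbp1.

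The transcription factors come next. Irf3, whose product is activated by signals from the sensors, had levels of 4.18, 4.22 and 4.20 in B6.MRLc1 testes and 4.05, 4.09 and 4.13 in B6 testes. All B6.MRLc1 arrays were above all B6 arrays, by a difference of 0.11 (SE 0.05, adjusted p = 0.301 by limma). Irf1, an early target of type II interferon, had levels of 2.13, 2.10 and 2.16 in B6.MRLc1 testes and 2.46, 2.58 and 2.21 in B6 testes. The B6.MRLc1 arrays lay within 0.06 of each other and below all B6 arrays, of which array 3 was closest. The difference was -0.29 (SE 0.10, unadjusted p = 0.0336, adjusted p = 0.205 by limma).

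Irf9 and Stat2 encode components of the complex that binds the ISRE. Irf9, singled out after its values were seen, had levels of 1.26, 1.39 and 1.27 in B6.MRLc1 testes and 1.67, 1.70 and 1.36 in B6 testes. Arrays 1 and 2 of B6 were above the B6.MRLc1 arrays and array 3 of B6 lay among them. The difference was -0.27 (SE 0.11, unadjusted p = 0.0491, adjusted p = 0.244 by limma). Stat2 had a difference of -0.19 (SE 0.09), again with B6 array 3 inside the range of the B6.MRLc1 arrays.

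The other members of this group were Irf2, a repressor of IRF1 targets, Irf5 and Irf7, which drive interferon and cytokine genes, and Irf8, a factor of macrophages and dendritic cells. Their differences were 0.00 for Irf2, -0.19 for Irf5, -0.11 for Irf7 and 0.29 for Irf8, and both strains overlapped for each. Over the 8 factors, 0 passed the adjusted threshold, against 2.62% of all tested genes. An unadjusted limma p under 0.05 was found for 2, Irf1 and Irf9, both lower in B6.MRLc1, against 11.1% of all tested genes. The median difference of the 8 was -0.15, against 0.02 for all tested genes.

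Of the membrane restriction factors, Ifitm1 and Ifitm3 encode proteins that hinder fusion of viruses with the cell membrane, and Bst2 encodes tetherin, which holds budding virions at the surface. Ifitm1 (probe at chr7:148155659-148155718) had levels of -0.46, -0.29 and -0.64 in B6.MRLc1 testes and 0.48, 0.40 and -0.14 in B6 testes. All B6.MRLc1 arrays were below all B6 arrays, and B6 array 3 was nearest to them. The means were -0.46 ± 0.18 in B6.MRLc1 and 0.25 ± 0.34 in B6 (each with its SD over 3 arrays). The difference, -0.71 (SE 0.19), was the farthest from 0 of the 39 genes, with an unadjusted limma p of 0.0101 and an adjusted p of 0.121. A further kept probe of Ifitm1 gave -0.66, but it shares a run of 54 bases with the first and is no independent measurement.

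Ifitm3 (probe at chr7:148195591-148195650) had levels of 2.60, 2.67 and 2.44 in B6.MRLc1 testes and 3.38, 3.02 and 2.51 in B6 testes. The rest lay below B6 arrays 1 and 2, and B6 array 3 fell inside the range of the B6.MRLc1 arrays. The difference was -0.40 (SE 0.22, adjusted p = 0.369 by limma). Bst2 had a difference of -0.08 (SE 0.18).

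Isg15 encodes a ubiquitin-like modifier that is joined to other proteins during infection, and Usp18 encodes the protease that removes it and that also dampens signalling at the type I receptor. Isg15 (probe at chr4:155573649-155573708) had levels of 0.67, 0.94 and 0.39 in B6.MRLc1 testes and 1.17, 1.03 and 0.43 in B6 testes. Its array 3 was the lowest in both strains, and the difference of -0.21 (SE 0.23, adjusted p = 0.643 by limma) was smaller than the SD in either strain. A dimmer probe of Isg15 that shares at most 7 bases in a row with the first gave -0.67, with B6.MRLc1 levels of -4.14, -3.49 and -4.28 and B6 levels of -3.13, -3.36 and -3.42. On that probe the groups did not overlap, so the probes of Isg15 disagreed in size. Usp18 had a difference of -0.07, and its lowest array was B6.MRLc1 array 3.

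The oligoadenylate synthetases make the second messenger that activates RNase L, which cleaves RNA. Oas1b was measured above background on all 6 arrays. In most laboratory strains, C57BL/6 included, Oas1b is known to carry a premature stop codon. Its levels were 5.02, 5.04 and 5.04 in B6.MRLc1 testes and 4.86, 4.93 and 5.06 in B6 testes. B6 array 3 was the highest of the 6 here, and the difference was 0.08 (SE 0.07, adjusted p = 0.541 by limma). Of the 2 dimmer kept probes of Oas1b, one shares 42 bases in a row with the brightest probe and gave 0.08, and the other gave -0.12. On the latter the levels were -0.90, -0.98 and -1.01 in B6.MRLc1 testes and -0.84, -0.79 and -0.88 in B6 testes. All B6.MRLc1 arrays lay below all B6 arrays there, so the probes of Oas1b disagreed in direction.

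Oas2 (probe at chr5:121180343-121180402) had levels of -0.51, -0.69 and -0.71 in B6.MRLc1 testes and 0.35, 0.33 and -0.59 in B6 testes. B6 arrays 1 and 2 stood far above the other 4, and B6 array 3 lay inside the B6.MRLc1 range. The difference was -0.67 (SE 0.27, unadjusted p = 0.0481, adjusted p = 0.242 by limma). Oas1a, singled out after its values were seen, had the same form, with 0.11, 0.12 and -0.14 in B6.MRLc1 testes and 0.74, 0.74 and -0.28 in B6 testes. A separate, dimmer probe of Oas1a showed levels of -2.84, -2.62 and -3.05 in B6.MRLc1 testes and -1.95, -1.93 and -2.98 in B6 testes. On both probes B6 arrays 1 and 2 were the highest. B6 array 3 was below all B6.MRLc1 arrays on the brightest probe and between them on the dimmer one.

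Oasl1 and Oasl2, which encode OAS-like proteins, had differences of 0.13 and -0.04, with overlap in both. Both probes of Oas1g were not well above background on any of the 6 arrays, nor was the Oas3 probe on any, so neither gene was tested. The Oas1 genes are close relatives, but the longest run of bases that probes of 2 different listed genes shared was 11, over all 54 probes.

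Among the 12 antiviral effectors and guanylate-binding proteins, 0 passed the adjusted threshold, against 2.62% of all tested genes. An unadjusted limma p under 0.05 was found for 0 of the 12, against 11.1% of all tested genes on the lower side and 9.14% on the higher. Xaf1, which encodes a protein that promotes apoptosis, had levels of 1.27, 1.31 and 1.34 in B6.MRLc1 testes and 1.08, 1.29 and 1.11 in B6 testes. B6 arrays 1 and 3 were the low ones and B6 array 2 overlapped, and the difference was 0.15 (SE 0.07, adjusted p = 0.334 by limma). A dimmer kept probe of Xaf1 gave -0.01, and the mean over both probes gave 0.07 (adjusted p = 0.757 by limma), so the probes of Xaf1 disagreed. Isg20, which encodes an exonuclease of single-stranded RNA, had levels of -0.14, 0.17 and -0.16 in B6.MRLc1 testes and 0.37, 0.24 and 0.03 in B6 testes. Only B6.MRLc1 array 2 and B6 array 3 overlapped the other strain, and the difference was -0.26 (SE 0.13, adjusted p = 0.328 by limma). A dimmer kept probe of Isg20 gave -0.32, with B6.MRLc1 levels of -1.57, -1.41 and -1.82 and B6 levels of -1.09, -1.37 and -1.38. On that probe the groups did not overlap.

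Ifit1, Ifit2 and Ifit3 encode proteins that bind foreign RNA and block its translation. Their differences were -0.38, -0.37 and -0.09. Ifit2, singled out after its values were seen, had levels of -3.79, -3.77 and -3.88 in B6.MRLc1 testes and -3.14, -3.19 and -3.99 in B6 testes. Its B6 array 3 was the lowest of all 6 and its B6 arrays 1 and 2 the highest. With normexp the difference of Ifit2 was -0.22.

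Mx1 and Mx2 encode dynamin-like GTPases that trap viral components, and Mx1 is known to be defective in most laboratory strains. Mx1, also singled out after its values were seen, had levels of -2.84, -2.74 and -3.02 in B6.MRLc1 testes and -2.14, -2.49 and -3.60 in B6 testes. Its B6 arrays spanned 1.46, the largest span over the B6 arrays among the 39 genes, and enclosed the 3 B6.MRLc1 arrays. Mx2 had a difference of 0.07 and Rsad2 (viperin, which makes a chain-terminating nucleotide) one of -0.01. Ifi44 and Ifi35, interferon-induced proteins, had differences of -0.38 and -0.05, and Ifi44 was well above background on 2 of 3 B6.MRLc1 arrays and on all 3 B6 arrays. Gbp2 and Gbp3, GTPases that attack the vacuoles of intracellular pathogens, had differences of -0.14 and -0.26. All of these intervals included 0.

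The last role is antigen processing for MHC class I. Tap1 encodes a chain of the transporter that brings peptides into the endoplasmic reticulum, and its probe lies at chr17:34330854-34330913. Its levels were -3.04, -3.04 and -2.89 in B6.MRLc1 testes and -2.27, -2.20 and -2.78 in B6 testes. All B6.MRLc1 arrays were below all B6 arrays, of which array 3 was the closest. The difference was -0.58 (SE 0.16), with an unadjusted limma p of 0.0133 and an adjusted p of 0.137. With normexp background correction it was -0.32.

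B2m, the light chain of every class I molecule, had levels of 4.28, 4.66 and 4.41 in B6.MRLc1 testes and 4.73, 4.56 and 4.28 in B6 testes. The strains overlapped, and the difference was -0.07 (SE 0.15, adjusted p = 0.814 by limma). Tap2, the partner of TAP1, and Psmb8 and Psmb9, subunits of the immunoproteasome, had differences of -0.05, -0.17 and -0.17. For Psmb8 and Psmb9, B6 arrays 1 and 2 were the highest and B6 array 3 the lowest of the 6.

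The tested genes with an ISRE match, 14 in number, had a median difference of -0.17, and the 17 with a window but no match had the same median to this precision. B6 array 3 was the lowest B6 array for 13 of the 14 and 15 of the 17. Genes with and without the match were not tested against each other.

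Leaving out 1 array at a time showed how far the differences rest on single arrays. In the fit without B6 array 3, 1.91% of all tested genes were called in either direction, 85 higher and 397 lower in B6.MRLc1. Of the 39 genes, 4 were called lower in B6.MRLc1 at an adjusted limma p under 0.05. They were Ifit2 at -0.65 (adjusted p = 0.0341), Ifitm1 at -0.90 (adjusted p = 0.0483), Oas2 at -0.98 (adjusted p = 0.0298) and Tap1 at -0.76 (adjusted p = 0.0351). Over all 17 settings these adjusted limma p-values ran from 0.0341 to 0.706 for Ifit2, from 0.0422 to 0.311 for Ifitm1, from 0.0298 to 0.493 for Oas2 and from 0.0351 to 0.327 for Tap1. In the same fit, 18 of the 39 genes had an unadjusted p under 0.05, all lower in B6.MRLc1, against 12.0% of all tested genes. The median difference of the 39 genes was then -0.31. B6 array 3 was singled out by these same genes, and leaving it out raises the B6 mean wherever it is the lowest B6 array. The 4 calls and the unadjusted count of this fit are therefore no support for a difference.

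Without B6 array 1 the median was -0.07, and 2 of 39 genes, Ifitm1 and Tap1, had an unadjusted limma p under 0.05 and were lower in B6.MRLc1, against 9.48% of all tested genes. Without B6 array 2 the median was also -0.07. In that fit 3 genes, Ifitm1, Dhx58 and Tap1, had such a p and were lower, against 8.56% of all tested genes, and Xaf1 alone had one and was higher, against 5.73%. Leaving out B6.MRLc1 array 1, 2 or 3 gave 2, 3 and 2 lower genes with such a p, against 9.65%, 10.1% and 9.64% of all tested genes, and medians between -0.21 and -0.14. None of the 39 genes passed the adjusted limma threshold in these 5 fits. Of all tested genes, 0.328%, 0.222% and 1.25% did so when B6.MRLc1 array 1, 2 or 3 was left out, 0.198% when B6 array 1 was, and 0.669% when B6 array 2 was. No label marks B6 array 3 as different from the other arrays, so the values with it are the reported ones.

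**Figure D4:**
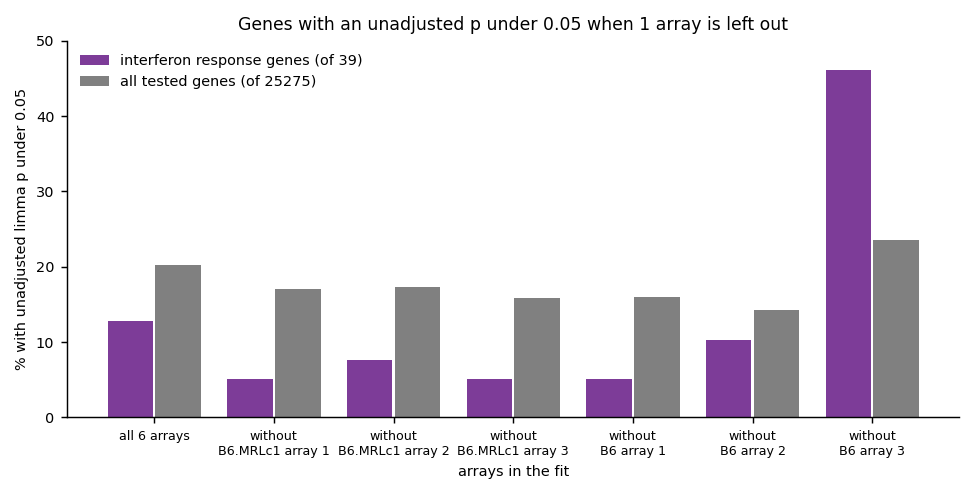
Percent of genes with an unadjusted limma p under 0.05 in the fit with all 6 arrays and in the 6 fits that leave out 1 array, for the 39 interferon response genes and for all 25275 tested genes. The share among the interferon response genes is above that of all genes only without B6 array 3, where it is 46.2%.

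The other parts of the pathway were read from lists chosen from textbook knowledge. Of 13 tested genes for interferon receptors and JAK-STAT signalling, 0 were called, against 2.62% of all tested genes. Their median difference was 0.01. The smallest p among them was that of Pias1, an inhibitor of this signalling, at 0.17 (SE 0.05, adjusted p = 0.131 by limma). Their array scores lay within -0.05 to 0.02 on all 6 arrays, so the high values of B6 arrays 1 and 2 were not seen in this list.

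Of 12 genes that act upstream of interferon, 0 were called and 10 had a difference below 0, against 2.62% and 46.0% of all tested genes. The median of the 12 was -0.11. Scores of this list were -0.06, -0.01 and -0.12 on the B6.MRLc1 arrays and 0.17, 0.07 and -0.11 on the B6 arrays. The B6 arrays thus stood in the order of the interferon response genes. Ikbke, a kinase of IRF3 and IRF7, had the smallest p, with levels of -4.05, -4.03 and -3.93 in B6.MRLc1 testes and -1.92, -3.50 and -2.02 in B6 testes. All B6.MRLc1 arrays were below all B6 arrays, of which array 2 was the lowest, by a difference of -1.53 (SE 0.43, adjusted p = 0.134 by limma). The difference was -0.83 with normexp. Ikbke is a chromosome 1 gene and none of the 41. Unlike the scores of its list, the B6 arrays of Ikbke did not follow the order seen in the interferon response genes.

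Of 33 other interferon-stimulated genes tested, 0 were called and 24 had a difference below 0, against 2.62% and 46.0% of all tested genes. The median of the 33 was -0.08, and their differences ran from -1.52 to 0.56. An unadjusted limma p under 0.05 was found for 4 of the 33, 2 of them lower. The background was 11.1% of all tested genes on the lower side and 9.14% on the higher. Scores of this list were -0.15, 0.01 and -0.08 on the B6.MRLc1 arrays and 0.17, 0.16 and -0.20 on the B6 arrays. B6 arrays 1 and 2 were again the highest and B6 array 3 the lowest. Cxcl9, a chemokine induced by type II interferon, had the smallest p and was on the other side, with a difference of 0.56 (SE 0.13, adjusted p = 0.0881 by limma). Of 14 other MHC class I genes, 0 were called and 11 had a difference below 0, against 2.62% and 46.0% of all tested genes. The median of the 14 was -0.05. Scores of this list were -0.11, 0.04 and -0.02 on the B6.MRLc1 arrays and 0.09, 0.06 and -0.08 on the B6 arrays. The B6 arrays again stood in the order of the interferon response genes. The smallest p was that of Canx, a chaperone of class I assembly, at 0.11 (adjusted p = 0.306 by limma).

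Of 9 tested interferon genes, 1 was called, against 2.62% of all tested genes. Ifna13, a type I interferon, exceeded background clearly on 0 of the 3 B6.MRLc1 arrays and on all 3 B6 arrays. It passed the filter on dim signals through the B6 arrays alone, so the filter itself favoured a lower value in B6.MRLc1, and its call is no support for a difference. Its measured means were -6.28 in B6.MRLc1 testes and -5.07 in B6 testes (adjusted p = 0.0191 by limma). The lowest signals well above background were -4.49, -5.01 and -5.31 on the B6.MRLc1 arrays, and set against these the B6 mean gave no fold above 1. With normexp the difference was -0.18 (adjusted p = 0.0902). The interferon alpha genes are near-identical copies, so which of them the probe measured is uncertain.

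**Figure D5:**
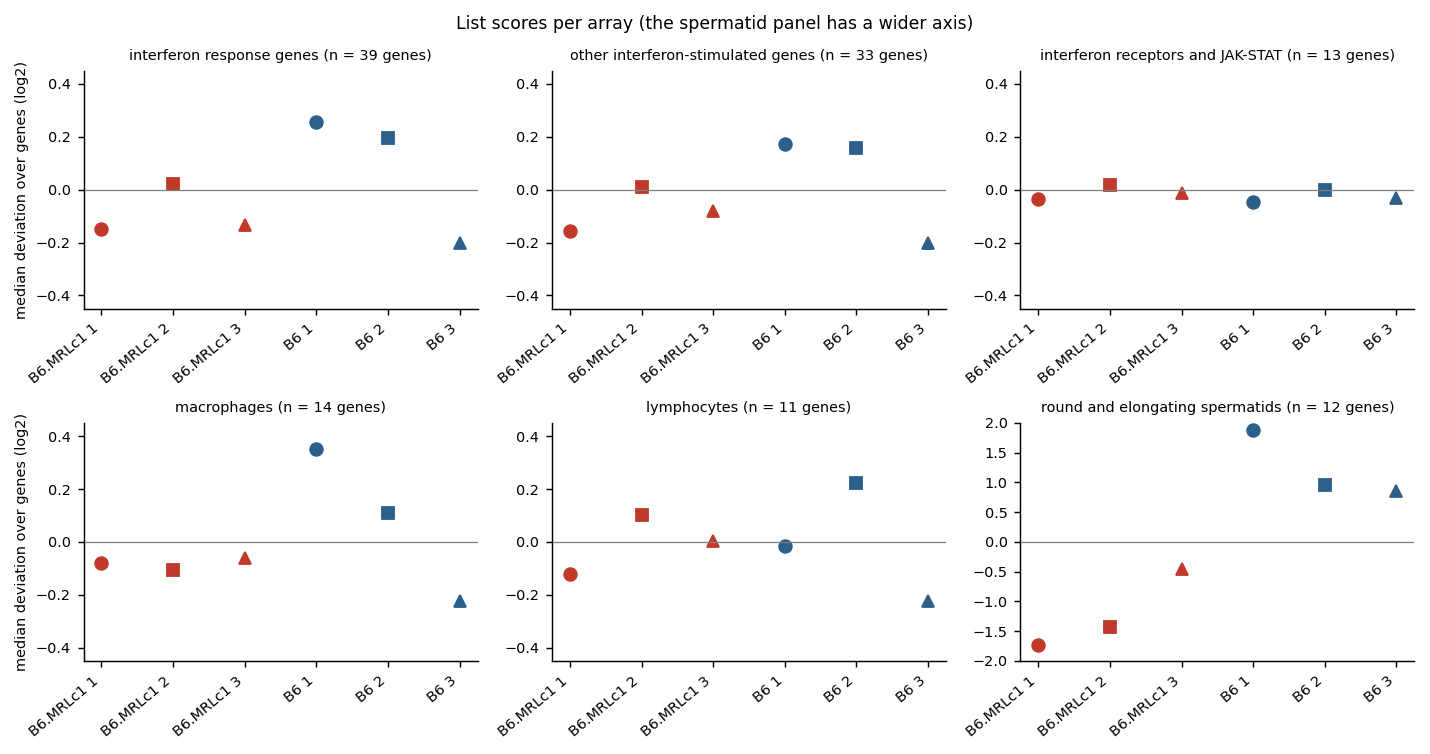
Score of each array, the median over a list of log2 signal minus the mean of each gene over the 6 arrays, for 6 lists, with B6.MRLc1 arrays left of B6 arrays. The interferon response genes, the other interferon-stimulated genes and the macrophage markers are high on B6 array 1 and low on B6 array 3, and the spermatid markers are higher on all B6 arrays. Some of the spermatid markers passed the filter on dim signals through the B6 arrays alone.

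Markers of the cells that the tissue could hold were read in the same fit. Of 14 macrophage markers, 0 were called, against 2.62% of all tested genes. The difference was below 0 for 11 of the 14, against 46.0% of all tested genes, and its median was -0.17. An unadjusted limma p under 0.05 was found for Cx3cr1 alone, a chemokine receptor, which was on the other side at 0.79 (adjusted p = 0.143), against 9.14% of all tested genes on the higher side. Their scores were -0.08, -0.10 and -0.06 on the B6.MRLc1 arrays and 0.35, 0.11 and -0.22 on the B6 arrays, the same order of B6 arrays as for the interferon response genes. Their summed signal, in multiples of the 75th percentile, ranged from 97.0 to 109 on the B6.MRLc1 arrays and from 93.4 to 123 on the B6 arrays. None of the 14 was below background on all arrays. The part of macrophages in the pattern was not tested.

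Of 11 tested lymphocyte markers 0 were called and 3 had a difference below 0, against 2.62% and 46.0% of all tested genes. Their scores were -0.12, 0.10 and 0.00 on the B6.MRLc1 arrays and -0.02, 0.22 and -0.22 on the B6 arrays. B6 array 3 was the lowest of the 6 here too and B6 array 2 the highest, while B6 array 1 lay between the B6.MRLc1 arrays. The summed signal ranged from 6.39 to 6.51 on the B6.MRLc1 arrays and from 5.87 to 6.24 on the B6 arrays. Cd8a, Cd8b1, Ms4a1 and Klrb1c failed the filter on dim signals. Of 12 markers of round and elongating spermatids, 4 were called, all lower in B6.MRLc1, against 2.62% of all tested genes. All 12 had a difference below 0, against 46.0% of all tested genes. Of the 12, 7 were well above background on all arrays, the called Dkkl1 and Acr among them. Acrv1, Spaca7, Prm3, Odf1 and Odf4 were so on 1 of 3 B6.MRLc1 arrays and all 3 B6 arrays. The B6 arrays alone let them pass the filter on dim signals. Their directions and the calls of Spaca7 and Odf4 are therefore no support for a difference. The count of differences below 0, the summed signal and the scores of this list include them. Each of the 7 above background on all arrays was also lower in B6.MRLc1. The summed signal of the 12 ranged from 2.26 to 6.35 on the B6.MRLc1 arrays and from 15.2 to 44.5 on the B6 arrays. Spermatid markers were high on B6 array 1 but did not overlap between the strains, unlike the scores of the interferon response genes, and the part of cell composition was not tested. Of 10 Sertoli cell markers 0 were called and 0 had a difference below 0, against 2.62% and 46.0% of all tested genes. Their differences ran from 0.04 to 0.34. Of the 7 tested Leydig cell markers 0 were called, against 2.62% of all tested genes, and their median difference was 0.29. Ldhc of 10 spermatocyte markers (median -0.03) and Dmrtb1 of 8 spermatogonium markers (median 0.02) were called lower, at -3.18 and -1.29. No endothelial or plasmacytoid dendritic cell marker was called, and their medians were -0.08 and -0.05. All 10 Sertoli cell markers and the 7 tested Leydig cell markers were above background on all 6 arrays, so defining markers of the labelled tissue were present.

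The share of detected spots and the additive error differed between the arrays in a way that went with strain. The part of array quality in this was not tested. Spots well above background made up 58.0% to 64.7% of the B6.MRLc1 arrays and 68.6% to 69.0% of the B6 arrays, and the additive error estimated by the scanner software was 3.38 to 5.68 on the B6.MRLc1 arrays and 2.66 to 3.14 on the B6 arrays. No spot was saturated. The differences of Tap1, Ifit1, Ifi44, Zbp1 and Ifit2, all dim, moved more with normexp than those of the other tested genes of the list. Mx1 and Rsad2 were also dim and moved less. The difference of Mx1 was -0.12 with and without normexp, and that of Rsad2 went from -0.01 to 0.05. The part of background in all these differences was not tested. Over genes, which are not independent replicates, log2 signal correlated at 0.979 to 0.990 between arrays of different strains and at 0.991 to 0.995 between arrays of the same strain.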

How the data were processed

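The 41 genes, the role groups and the marker and pathway lists were chosen with earlier results of these data known. Per the labels' protocols, the authors labelled column-purified total RNA with Cy3 and hybridised it to 1-colour Agilent arrays. The deposited scanner tables hold linear intensity per spot. Per the file headers, this intensity is background-subtracted and comes with flags for saturation, for outliers and for signal well above background. Feature Extraction is version 10.7.3.1 per the file headers and 9.5.3 per the submitters' processing notes, and it is not known which holds. All arrays shared 1 slide, with B6.MRLc1 in row 2 and B6 in row 1. Per the file headers, probe positions are on mm9 (NCBI 37).

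Control and outlier spots were left out. Processed signals were scaled to the 75th percentile of their array and put on the log2 scale. A probe was kept with values on at least 4 arrays and over 0.5 of its spots well above background on at least 3 arrays, which left 36626 of 55681 probes. The brightest kept probe of each gene was tested. The strain difference was fitted with limma 3.58.1 in R 4.3.3 (lmFit, eBayes), and genes with a Benjamini-Hochberg adjusted p under 0.05 were called.

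The deposited table of the series holds log2 values, and how they were made is not given in those sources. Compared with the scaled scanner signal, centred on the median of each probe over the 6 arrays, 99.96% of its values differed by at most 0.05. Its column medians were 0.00474, 0.00986 and 0.0161 for B6.MRLc1 and -0.00297, -0.00405 and 0.0144 for B6. It was used as an alternative only.

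Values by array are given for called genes and, in each of 7 role groups, for the gene with the highest mean level and the gene with the smallest p. In each of 5 pathway lists the gene with the smallest p and any called gene are named, and 9 lists hold cell type markers. One result of the receptor list is not reported here, and the list was read without it. Deviations of arrays that share a replicate number correlated at -0.04, 0.17 and 0.09 over genes. Those of arrays with different numbers correlated at -0.16 to 0.07, so these values do not settle whether numbers pair mice. No label states a pairing, so the number was left out of the main fit and used as a block in an alternative. In data simulated for the comparison of B6.MRLc1 with B6 with 25270 genes, the fit called 73 of 100 genes changed by 1 on the log2 scale, 91 of 100 changed by 2, and 11 of 25070 unchanged ones. The changed genes were drawn at random from all genes. The interferon response genes had a larger median standard error (0.164, against 0.0938), so these shares do not hold for them. Alternatives were normexp with an offset of 50, other scalings, filters, floors, probe rules and variance models, array weights, a replicate block and leaving out each array. For 27235 probes the gene was named through a RefSeq accession. The number of arrays limits the precision.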

Additional observations from a re-analysis of the deposited data

How the results depend on the processing

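The differences of the interferon response genes, their median and the counts of called genes were recomputed under 17 alternatives (16 for Ifi44). Array scores were recomputed under 3, and the pathway, marker and promoter results were not taken through all of these settings. The median difference of the interferon response genes stayed below 0 in all 17, from -0.31 to -0.07. None of these genes passed the adjusted limma threshold in 15 of the 17 (5 had an unadjusted p under 0.05 in the reported fit). Array weights gave 2, Ifitm1 at -0.82 (adjusted p = 0.0422) and Tap1 at -0.69 (adjusted p = 0.0485), and leaving out 1 array gave 0 to 4. The weights were lowest for B6 array 3 (0.588) and B6 array 1 (0.613) and highest for B6 array 2 (2.97). The weighted fit thus gave B6 arrays 1 and 3 a small part in the B6 mean. It is not independent of leaving out either of them. With them 38.5% of the interferon response genes had an unadjusted limma p under 0.05, against 28.1% of all tested genes. The 661 genes called over the whole array (102 higher and 559 lower in B6.MRLc1) became 1639 with array weights, 1177 with a variance trend and robust estimation, 1000 with normexp and 50 with no filter on dim probes, where 35019 genes were tested. The deposited values gave 132 higher and 316 lower. Leaving out 1 array gave 50 to 482. With the replicate number, which is also the slide column, as a block, limma called 0 genes at the adjusted threshold (4865 at an unadjusted p under 0.05) and 0 of the interferon response genes (6 unadjusted). The cause of these changes was not tested.

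Differences near 0 changed sign in some alternatives, and none of them passed the threshold on either side. With normexp Rsad2 was at 0.053, Ifih1 at -0.00014 and Irf2 at -0.0085, and with quantile normalization Rsad2 was at 0.0010. Ifih1 was at -0.062 with array weights and at -0.023 with the mean over probes, and Irf2 at -0.0011 in the deposited values. Leaving out 1 array gave ranges that crossed 0. They were B2m from -0.19 to 0.031, Bst2 from -0.23 to 0.026, Gbp2 from -0.31 to 0.0063, Ifi35 from -0.11 to 0.023, Ifih1 from -0.078 to 0.10, Ifit3 from -0.30 to 0.10, Irf2 from -0.035 to 0.050, Irf7 from -0.28 to 0.00077, Mx1 from -0.55 to 0.18, Mx2 from -0.043 to 0.21, Oasl1 from -0.094 to 0.32, Oasl2 from -0.17 to 0.042, Rsad2 from -0.21 to 0.15 and Tap2 from -0.14 to 0.024.

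Ifit1, Ifit2, Ifi44, Tap1 and Zbp1 were dim, and the part of background in their differences was not tested. Oas1g and Oas3 were not tested.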
